A study of Sus scrofa with 90 samples.

Results

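Muscle sampled 21 d after an intramuscular injection of propylene glycol was compared with non-injected muscle of the same pigs. Samples were taken by their labels alone, with 9 muscles labelled as 21 d lesions and 10 labelled as control, which is 19 of the 48 muscle samples of the series. Each of 10 piglets, lettered C to L, received 4 injections of the solvent at different intervals into the Longissimus dorsi, the long muscle of the back, and at sampling its 4 lesions were 6 h, 2 d, 7 d and 21 d old. The control was a site of the same muscle that received no injection, and not a site injected with another fluid, so the needle and the solvent were not separated. Breed, sex, age and dose were not given in the sources used here. No 21 d sample of pig L was analysed here, which leaves 9 pigs with both muscles.

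Propylene glycol carries drugs that dissolve poorly in water, and it can damage muscle where it is deposited. Injured muscle fibres die and are cleared by inflammatory cells, after which satellite cells, the stem cells of muscle, divide and fuse into new fibres while fibroblasts lay down connective tissue. Weeks after an injury a lesion can hold regenerated fibres, scar and fat in varying shares. In bulk samples such as these, fewer cells of a type and less RNA per cell cannot be told apart.

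RNA of each muscle was labelled with radioactive phosphorus as cDNA and hybridised to its own array of spotted DNA, called features here and named by their number on the list. The list held 4608 features, and 1908 had a value in every sample. Values were logarithms, of a base not given in the sources used here, after quantile normalisation across arrays, and differences are given in these log units. Of the 1908 features, 206 carried exactly 1 gene symbol, standing for 121 genes, and 31 of these genes were listed under several features. A gene is described by its feature with the highest mean over all arrays. A feature was called where limma's Benjamini-Hochberg adjusted p, over all 1908 features, was below 0.05.

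After quantile normalisation, the 21 d lesion showed a few large rises and many small falls. Of the 1908 features, 281 were called (14.7%), of which 124 were higher (6.50%) and 157 were lower (8.23%) at 21 d. The largest rise with a gene symbol was that of XIRP2, which encodes a protein of the cell contacts and Z discs of striated muscle, at 2.22 log units. ANPEP, the membrane aminopeptidase CD13, rose by 1.12 log units, and JAK1, a kinase that relays cytokine signals, rose by 0.54. Among genes that fell were POMGNT1, a Golgi enzyme that builds the sugars of dystroglycan, by 0.56, and the tropomyosin TPM2 by 0.47.

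After quantile normalisation the called rises ran to larger sizes than the called falls. Sizes among the 124 higher features ran from 0.19 to 2.77 log units with a median of 0.473, and 18 exceeded 1. Sizes among the 157 lower features ran from 0.176 to 0.748 with a median of 0.359, and 0 exceeded 1. This order of sizes turned with the scaling. Without scaling the called rises had a median of 0.333 and 7 exceeded 1, while the called falls had a median of 0.754 and 142 exceeded 1. With arrays centred on their median the medians were 0.343 and 0.735, with 8 and 123 above 1, and after division by the array SD as well they were 0.525 and 0.436, with 15 and 0 above 1. In 51 of the higher and 41 of the lower features all 9 pigs moved the same way. The control and 21 d values did not overlap for 27 features (1.42% of those tested), of which 25 were higher at 21 d and 2 were lower. The median difference over all 1908 features was -0.0009, and over the 121 genes it was -0.043.

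**Figure D1:**
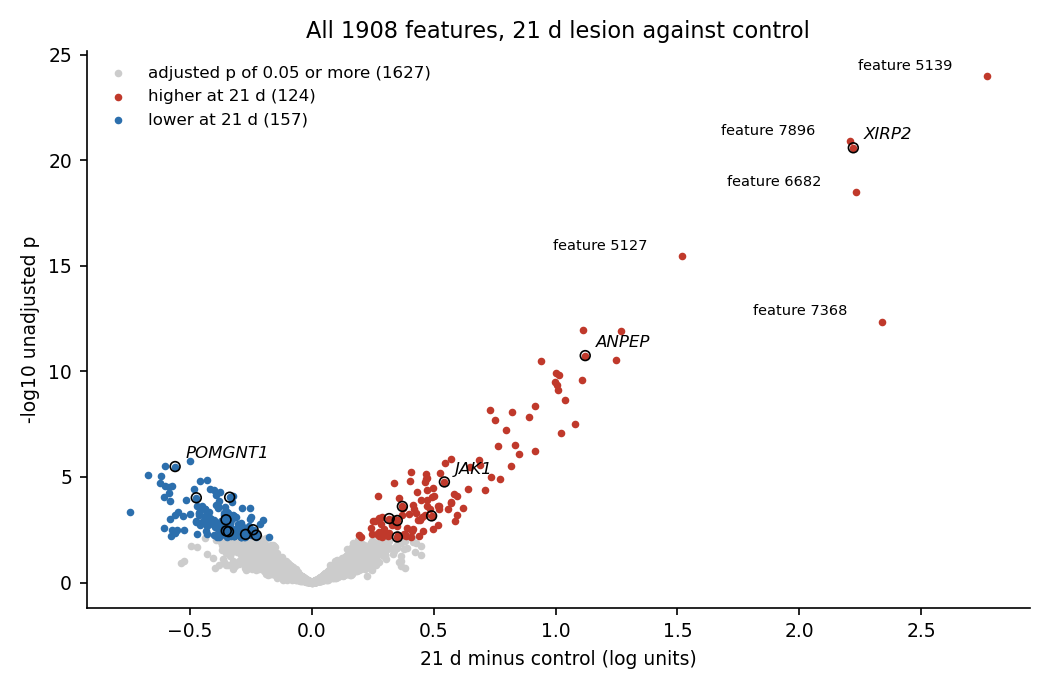
Each point is 1 of 1908 features, with the 21 d minus control difference in log units on the x axis and minus log10 of limma's unadjusted p on the y axis. Red points are the 124 called higher and blue points the 157 called lower, circles mark the 17 called genes, and the points beyond 2 log units lie all on the side of the rises after quantile normalisation.

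Among the 121 genes, 17 were called (14.0%, against 14.7% of all features). The 8 higher were XIRP2, ANPEP, JAK1, MYH7, UGP2, HSPE1, NPPA and ACTB. The 9 lower were POMGNT1, QDPR, TPM2, TPM3, CKM, HTT, SLC35A4, EIF4A3 and UCP3. The remaining 104 did not pass the test. Lists described below are short, and counts of called genes in them are to be set against this share of 14.0%. Without scaling 58 genes were called, 9 higher and 49 lower, so a missing call described below is one after quantile normalisation.

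How many features were called depended on the fit and on single samples. The 6 h array of pig F had its values displaced by 384 places on the list and was left out of the fit; with it kept, 177 features were called, 91 higher and 86 lower, and 10 genes. A fit on the control and 21 d samples alone called 178, 86 higher and 92 lower, and 9 genes. Leaving out pig I gave 169 features, 100 higher and 69 lower, and leaving out pig C gave 325, 125 higher and 200 lower. XIRP2, ANPEP, POMGNT1 and JAK1 were called in each of these fits and in each of the 27 alternatives run for them.

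The other 13 called genes were less firm. Leaving out any 1 pig did not end the calls of QDPR, TPM2, MYH7 and UGP2. The calls of HSPE1 (without pig D or I), TPM3 and NPPA (each without pig D or J) were lost, with adjusted p up to 0.0577, 0.0621 and 0.0668 in limma's test. HTT lost its call without pig E, I, J or K and SLC35A4 without pig F, I, J or K, with adjusted p up to 0.142 and 0.147. CKM lost it unless pig C, E, G or H was the one left out (up to 0.0964), and EIF4A3 without pig D, F, I, J or K (up to 0.184). UCP3 lost it unless pig D, E or H was the one left out (up to 0.109) and ACTB unless it was pig G, H or J (up to 0.131). With the displaced 6 h array of pig F kept in the fit, HSPE1, TPM3, HTT, SLC35A4, EIF4A3, UCP3 and ACTB were not called, with adjusted p from 0.0633 to 0.236. In the fit on the control and 21 d samples alone UGP2, HSPE1, TPM3, CKM, SLC35A4, EIF4A3, UCP3 and ACTB were not called, with adjusted p from 0.0609 to 0.143. Without scaling the 9 genes called lower had larger differences, from -0.56 for UCP3 to -1.24 for CKM and POMGNT1. By the exact sign-flip test over the 9 pigs SLC35A4 gave p = 0.0625, or 0.083 adjusted over the 41 genes and features named. UGP2 and TPM3 gave 0.03516 (0.048 adjusted), and the other called genes gave smaller p. As the 41 were chosen from the same values, the sign-flip test is not independent of the calls.

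The balance of rises and falls changed with the scaling and with the spread of values within an array as a covariate. The spread was itself lower at 21 d in 8 of 9 pigs, so the covariate fit cannot tell spread and lesion apart. The part of the spread in the calls was not tested. Before normalisation the SD over the 1908 features was 0.976 ± 0.237 (SD, n = 10) in control arrays, from 0.5275 to 1.264, and 0.643 ± 0.196 (SD, n = 9) in 21 d arrays, from 0.424 to 1.096. It was lower at 21 d in 8 of 9 pigs, with a mean difference of -0.375 and p = 0.03516 by the exact two-sided sign-flip permutation test. Pig C went the other way, from 0.5275 in its control to 1.096 at 21 d, the highest of the 21 d arrays; without it the mean difference was -0.493 with an exact p of 0.007812. Without any 1 of the other 8 pigs the exact p was between 0.0547 and 0.0703, and for the interquartile range in place of the SD it was 0.05078 over the 9 pigs. With the SD of each array as a covariate, 111 features were called, of which 93 were higher and 18 lower. Without any scaling 708 were called, 178 higher and 530 lower, and with arrays centred on their median 742 were called, 221 higher and 521 lower. Dividing the centred values by each array's SD gave 275, 93 higher and 182 lower.

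Place on the feature list also moved with the direction, and signal level moved with place. The first 6 stretches of 384 list places held 1319 tested features, of which 53 were called higher and 155 lower, with a median difference of -0.070. The later stretches held 589 tested features, of which 71 were called higher and 2 lower, with a median of 0.0935. The median of the features' mean control values lay between 0.078 and 0.425 in each of the first 6 stretches. In the later stretches with tested features it lay between -0.254 and 0.0007. A fit on the 954 features with the highest means called 255, of which 109 were higher and 146 lower. Whether direction went with list place or with signal level was not tested. Subtracting a running median along the list left 175 calls, 104 higher and 71 lower, and 88 of the 124 rises and 62 of the 157 falls were among them. Of the called genes, XIRP2, UGP2 and NPPA stood in the later stretches. With the running median subtracted their differences were 2.15, 0.42 and 0.28, and UGP2 was not called. What the list's order stands for on the array was not given in the sources used here.

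**Figure D2:**
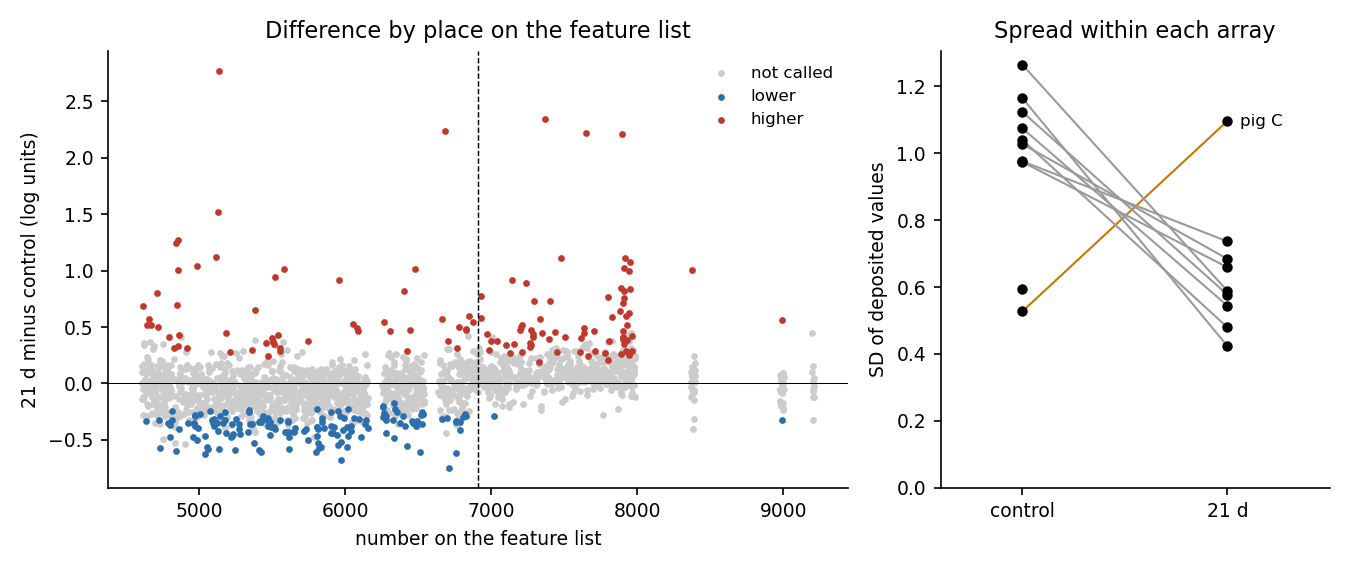
Left, the 21 d minus control difference in log units of each of 1908 features against its number on the list, with called features in red (higher) and blue (lower) and a dashed line after the sixth stretch of 384 places; 155 of the 157 falls lie to the left of the line. Right, the SD of the deposited values of each control and 21 d array, with lines joining the arrays of 1 pig; the spread fell in 8 of 9 pigs and rose in pig C.

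XIRP2 gave the widest separation of the genes with a symbol. Xin repeat proteins bind actin and are found where muscle fibres are remodelled. Control values ran from -0.13 through a median of -0.03 to 0.36, and 21 d values from 1.59 through 2.21 to 2.89. All 9 lesions stood above the highest control, which was that of pig D, and each of the 9 pigs rose, by 1.70 in pig C at the least and by 2.64 in pig I at the most. The means were -0.004 ± 0.142 (SD, n = 10) and 2.22 ± 0.44 (SD, n = 9), and the difference of 2.22 ± 0.12 (SE) had an adjusted p of 1.60e-18 in limma's test. Over 27 alternative fits it ran from 1.87 to 2.37. The exact sign-flip test over the 9 pigs gave 0.003906, the smallest p it can give, and 0.010 when adjusted over the 41 genes and features named. These 41 were chosen from the same values, so this test adds no independent support.

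XIRP2 was also raised at other ages, with the same controls used for each. It stood 1.21 log units above control at 6 h, 0.08 at 2 d (adjusted p = 0.798, limma) and 2.08 at 7 d. The 21 d level exceeded the 2 d level by 2.14 and the 6 h level by 1.01, with adjusted p of 5.68e-18 and 6.46e-08 in limma's test. Its difference from the 7 d level was 0.14 with an adjusted p of 0.807, so a change between 7 d and 21 d was not shown.

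ANPEP is carried by macrophages, fibroblasts and other cells and trims peptides at the cell surface. Its feature 5115 ran from -0.18 through 0.14 to 0.38 in controls and from 0.90 through 1.10 to 1.81 in 21 d lesions. The groups did not overlap, and the lesions of pigs D and J rose most, by 1.98 and 1.64. The means were 0.13 ± 0.16 (SD, n = 10) and 1.26 ± 0.35 (SD, n = 9), a difference of 1.12 ± 0.12 (SE) with an adjusted p of 3.75e-09 in limma's test, positive in 9 of 9 pigs.

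ANPEP was the called gene that stood furthest above its own 7 d level, though not past the threshold. It was 0.17 above control at 6 h, 0.19 at 2 d and 0.64 at 7 d. After 21 d it was 0.48 above its 7 d level (adjusted p = 0.0558, limma), and 0.96 and 0.93 above those at 6 h and 2 d. The other ANPEP feature, number 4970, differed by 0.01 and was not called. Features 5127 and 5139, which stand 12 and 24 places after number 5115 on the list, rose by 1.52 and 2.77; whether signal spread between them was not tested.

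**Figure D3:**
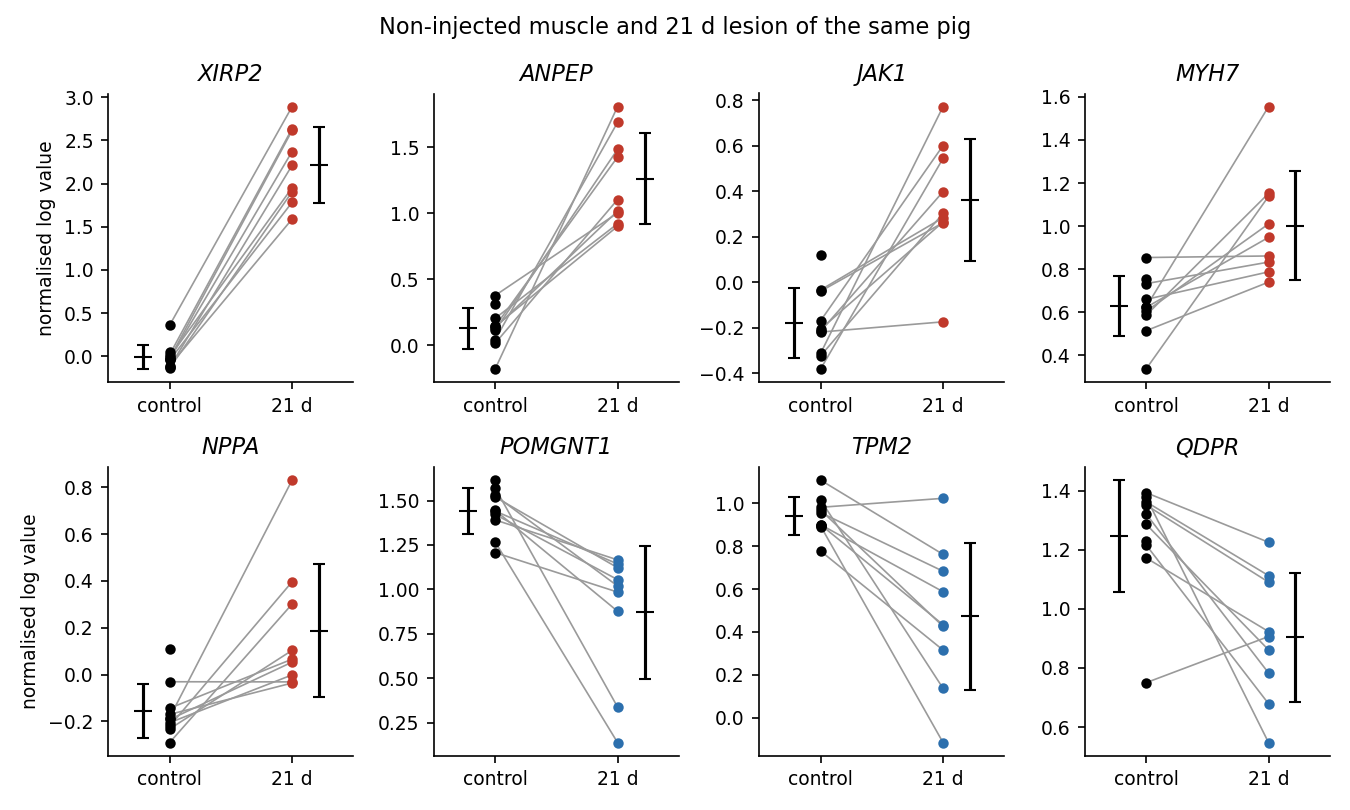
Normalised log values of 8 called genes in control muscle (10 pigs, black) and in the 21 d lesion (9 pigs, red for genes called higher and blue for genes called lower), with lines joining the samples of 1 pig and bars for the mean and SD; axes differ between panels. XIRP2, ANPEP and POMGNT1 show no overlap between the groups, while in JAK1, MYH7, NPPA, TPM2 and QDPR the groups overlap.

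Proteins of the cell surface and matrix were sparsely measured, with 4 genes of a list of 53. ANPEP was higher, POMGNT1 lower, and FN1 and DMD were not called, and the median of the 4 differences was -0.083. The share called over all 121 genes was 14.0%. FN1 encodes fibronectin, a matrix protein laid down in wounds, and it stood at 0.104 in controls and -0.121 at 21 d (-0.23, adjusted p = 0.105, limma). DMD encodes dystrophin, which ties the cytoskeleton of the fibre to dystroglycan, and it differed by 0.07 (adjusted p = 0.530). None of 12 fibroblast markers was measured, so the collagens are not described.

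POMGNT1 was the gene with the clearest fall. Control values ran from 1.21 through 1.44 to 1.61 and 21 d values from 0.14 through 1.02 to 1.17. All 9 lesions lay below all 10 controls, with pigs J and K lowest, at 1.23 and 1.13 below their own controls, and the other 7 pigs between 0.22 and 0.57 below. The means were 1.44 ± 0.13 (SD, n = 10) and 0.87 ± 0.37 (SD, n = 9), a difference of -0.56 ± 0.10 (SE) with an adjusted p of 1.61e-04 in limma's test. The differences from control were -0.19 at 6 h, -0.13 at 2 d and -0.54 at 7 d, and 21 d minus 2 d was -0.43 (adjusted p = 0.00439, limma).

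Called genes of slow and cardiac-type fibres moved in both directions. Of 17 listed genes 7 were measured, of which 2 were higher, 1 was lower and 4 were not called. The median difference was -0.034, and 14.0% of all 121 genes were called. MYH7 is the myosin heavy chain of slow fibres and heart, NPPA the atrial natriuretic peptide of the heart, and TPM3 the tropomyosin of slow fibres.

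MYH7 feature 5503 ran from 0.34 through 0.62 to 0.85 in controls and from 0.74 through 0.95 to 1.55 in lesions. It rose in 9 of 9 pigs, by 0.01 in pig C and 0.93 in pig J, and the groups overlapped. The difference was 0.37 ± 0.09 (SE, adjusted p = 0.00491, limma). MYH7 feature 4799 fell by 0.37 (adjusted p = 0.0270, limma), and features 4610 and 6486 differed by -0.14 and -0.06 and were not called, so the features of MYH7 gave no single direction. For feature 5503 the sign also turned without scaling, to -0.071, and with arrays centred on their median, to -0.047, and with the array SD as a covariate the adjusted p was 0.25.

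NPPA ran from -0.29 through -0.19 to 0.11 in controls and from -0.04 through 0.07 to 0.83 in lesions. It was higher in 8 of 9 pigs, and pig J, at 0.83, stood above the next lesion at 0.396. Its difference of 0.35 ± 0.10 (SE) had an adjusted p of 0.0142 in limma's test, and of 0.43 with the array SD as a covariate.

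TPM3 ran from 1.44 through 1.81 to 2.11 in controls and from 0.80 through 1.49 to 1.79 in lesions. It was lower in 8 of 9 pigs with overlapping groups, by -0.35 ± 0.10 (SE, adjusted p = 0.0135, limma). The call was lost with the array SD as a covariate (-0.27, adjusted p = 0.234), and without scaling the difference was -1.19. ATP2A2, the calcium pump of the slow and cardiac sarcoplasmic reticulum, differed by -0.27 (adjusted p = 0.0996), TNNT1 by -0.19, SLN by -0.03 and MYL2 by 0.04, all without passing the test.

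None of the 8 measured fast fibre genes was called, of 15 listed. At the share of 14.0% over all 121 genes, so short a list can lack a call. The median of the 8 differences was -0.019, and 4 were positive. The 2 with the smallest p were MYH1, the fast myosin heavy chain IIx, at 0.25 (adjusted p = 0.191), and TNNI2, fast troponin I, at 0.10 (adjusted p = 0.287). Without scaling TNNI2 was called higher, at 0.27 (adjusted p = 0.0158, limma), and MYH1 was not called. MYH1 ran from -0.06 through 0.12 to 0.51 in controls and from 0.02 through 0.22 to 1.65 in lesions, and its highest lesion, pig J, stood above the next at 0.776.

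Single features of fast fibre genes did pass the test although the features chosen for the genes did not. Of 18 features of MYLPF, the fast regulatory light chain, numbers 6082 and 7944 rose by 0.49 and 0.62 and number 5475 fell by 0.37, while 15 were not called. Of 12 features of TNNC2, fast troponin C, 3 fell, by 0.43, 0.36 and 0.52, and 0 rose. Among all 206 features with a symbol 15.0% were called, against which these counts are to be set. The 4 MYH1 features had positive differences, from 0.08 to 0.28, and none was called.

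Sarcomere and Z disc genes shared by fibre types were represented by 6 of 31 listed. XIRP2 was higher, TPM2 was lower and DES, MYOZ1, SMPX and ANKRD1 were not called, with a median of -0.147. Over all 121 genes 14.0% were called. TPM2, the beta tropomyosin, ran from 0.78 through 0.93 to 1.11 in controls and from -0.12 through 0.43 to 1.02 in lesions. It was lower in 8 of 9 pigs, most in pig I, where it fell by 1.01, and slightly higher in pig J, whose lesion was within the control range. The difference of -0.47 ± 0.11 (SE) had an adjusted p of 0.00231 in limma's test, which became 0.065 with the array SD as a covariate and 0.076 after the running median along the list was subtracted. The other TPM2 features differed by 0.10 and 0.09 and were not called. DES, desmin, the intermediate filament of muscle, differed by -0.35 with an SE of 0.24 and an adjusted p of 0.365.

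CKM, the muscle creatine kinase that buffers ATP at the sarcomere, was the measured member of its list of 7. Feature 5072 ran from 2.39 through 2.54 to 2.89 in controls and from 2.04 through 2.34 to 2.56 in lesions. It was lower in 7 of 9 pigs, and slightly higher in pigs C and H. The difference was -0.24 ± 0.08 (SE) with an adjusted p of 0.0291 in limma's test. The call was lost with the array SD as a covariate (-0.17, adjusted p = 0.340) and after the running median along the list was subtracted (-0.16, adjusted p = 0.349), and without scaling the difference was -1.24. Of its 10 features 4 fell, by 0.46, 0.38, 0.36 and 0.24, and 0 rose. The features called for CKM all fell, and the remaining 6 were not called. Among all 206 features with a symbol 15.0% were called.

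**Figure D4:**
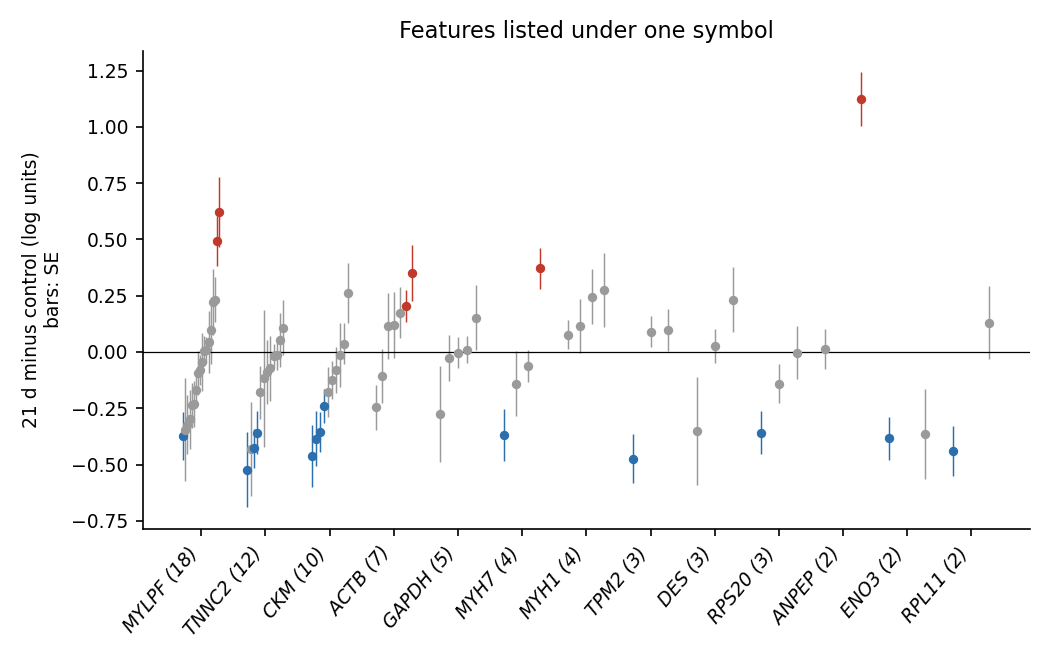
The 21 d minus control difference in log units of each feature of 13 genes listed under several features, with bars for the SE of limma's fit and the number of features in brackets; red and blue points are called higher and lower, grey points are not called. Features of MYLPF and MYH7 were called in both directions, and those called for CKM and TNNC2 all lie below zero.

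Features under the same symbol often disagreed. Of the 31 genes with several features, 21 had differences of both signs, 11 had at least 1 called feature, and 2, MYLPF and MYH7, had calls in both directions. Counted by any feature, 22 genes were called, and 31 of the 206 features with a symbol were called (15.0%). ENO3 feature 5922, muscle enolase, fell by 0.38 (adjusted p = 0.00491, limma) while the feature that stands for the gene, number 5217, differed by -0.36 with an adjusted p of 0.245. RPL11 feature 6282 fell by 0.44 and feature 5837 differed by 0.13. The sequences of the spots were not used here, and cross-hybridisation was not tested.

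Of 29 genes of glycolysis and glycogen 9 were measured, and 1, UGP2, was higher, with none lower and a median of -0.088, where 14.0% of all 121 genes were called. UGP2 makes UDP-glucose, the donor of glucose for glycogen. It ran from -0.19 through 0.35 to 0.55 in controls and from 0.20 through 0.76 to 1.40 in lesions, with overlap, and was higher in 7 of 9 pigs. The difference was 0.49 ± 0.13 (SE) with an adjusted p of 0.0101 in limma's test, and 0.065 in the fit on the control and 21 d samples alone, 0.055 after the running median was subtracted and 0.114 without scaling, where the difference was 0.31. By their features of highest mean, ENO3, SLC2A4, PGK1, GAPDH, PFKM, TPI1, GPI and PYGM were not called, and none of the 5 GAPDH features was. ENO3 feature 5922 was called lower, at -0.38 in 8 of 9 pigs (adjusted p = 0.00491, limma). Without scaling ENO3 feature 5217 was also called lower, at -0.89 (adjusted p = 0.00193, limma).

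Mitochondrial genes for respiration were not called in any of 4 cases of 91 listed, where 14.0% of all 121 genes were called. Their median was -0.137. ATP5G1, a subunit of the ATP synthase, differed by -0.17 (adjusted p = 0.309), and COX7A1, the muscle form of a cytochrome oxidase subunit, by -0.17 (adjusted p = 0.311). Without scaling both were called lower, at -0.35 and -0.84 (adjusted p = 0.0124 and 5.48e-04, limma). UCP3, the uncoupling protein of muscle mitochondria, was in none of the lists, and its feature 6344 was lower. The other UCP3 feature, number 5909, differed by 0.095 and was not called (adjusted p = 0.670, limma). Feature 6344 ran from 0.37 through 0.74 to 0.80 in controls and from 0.31 through 0.48 to 0.56 in lesions, with 8 of 9 pigs lower. The difference of -0.23 ± 0.08 (SE) had an adjusted p of 0.0425 in limma's test and was not called with the array SD as a covariate.

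Of 33 chaperone and stress genes 3 were measured. HSPE1, the small chaperonin of the mitochondrial matrix, was higher, HSP90AA1 and FTH1 were not called, and the median was 0.006. The share called over all 121 genes was 14.0%. Without scaling HSP90AA1 was called lower, at -1.02 (adjusted p = 0.00112, limma). HSPE1 ran from 1.96 through 2.08 to 2.53 in controls and from 2.02 through 2.37 to 2.98 in lesions. It was higher in 7 of 9 pigs with overlapping groups, by 0.32 ± 0.09 (SE, adjusted p = 0.0126, limma). It had been 0.66 above control at 6 h and 0.58 at 7 d, and the 21 d level was -0.34 from that at 6 h (adjusted p = 0.042, limma). The direction of HSPE1 rested on the scaling. Without scaling it was called lower, at -0.66 (adjusted p = 0.039, limma), and with arrays centred on their median the difference was -0.63. With the array SD as a covariate the difference was 0.33 and was not called (adjusted p = 0.069, limma).

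Signalling and cytokine genes were represented by 4 of 47. JAK1 was higher, MIF, MAPK12 and NFKBIA were not called, and the median was -0.046, where 14.0% of all 121 genes were called. JAK1 ran from -0.38 through -0.21 to 0.12 in controls and from -0.17 through 0.30 to 0.77 in lesions. It rose in 9 of 9 pigs, by 0.04 in pig I, whose lesion of -0.17 was within the control range, and by 1.08 in pig E. The means were -0.18 ± 0.15 (SD, n = 10) and 0.36 ± 0.27 (SD, n = 9), a difference of 0.54 ± 0.11 (SE) with an adjusted p of 6.18e-04 in limma's test. It stood 0.68 above control at 6 h, 0.18 at 2 d and 0.74 at 7 d, and its difference from the 2 d level was 0.36 (adjusted p = 0.0369, limma). MIF, a cytokine of macrophages and other cells, differed by -0.25 (adjusted p = 0.244).

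In the non-muscle cytoskeleton list 3 of 43 genes were measured. ACTB, cytoplasmic beta actin, was higher, CFL1 and TUBA1B were not called, and the median was -0.108. The share called over all 121 genes was 14.0%. ACTB feature 5511 ran from -0.24 through 0.22 to 0.35 in controls and from -0.01 through 0.46 to 0.86 in lesions, higher in 8 of 9 pigs. The difference was 0.35 ± 0.12 (SE) with an adjusted p of 0.0482 in limma's test, close to the threshold, and without scaling it was 0.15 (adjusted p = 0.346). Of 7 ACTB features 2 were called, both higher, by 0.35 and 0.20, where 15.0% of all 206 features with a symbol were called. ACTB features 5513 and 5363 went the other way, by -0.245 and -0.109, and were not called (adjusted p = 0.0952 and 0.609, limma). CFL1, cofilin, which cuts actin filaments, differed by -0.17 (adjusted p = 0.191). Without scaling CFL1 was called lower, at -1.17 (adjusted p = 5.10e-04, limma).

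Genes of protein synthesis gave no called member when each gene was taken by its feature of highest mean. By that rule none of 12 ribosomal protein genes was called, with a median of 0.049, and none of 5 translation genes, with a median of 0.136. The share over all 121 genes was 14.0%, at which lists this short can lack a call. RPS20 and RPS12 had the smallest p of the ribosomal genes, at -0.14 and -0.17. Other features of the same list did pass the test: RPS20 feature 5350 was lower by -0.36 in 9 of 9 pigs (adjusted p = 0.00924, limma), and RPL11 feature 6282 by -0.44 in 8 of 9 (adjusted p = 0.00589, limma). TPT1, the translationally controlled tumour protein, differed by -0.19 (adjusted p = 0.163) and EEF1G, an elongation factor subunit, by -0.26 (adjusted p = 0.191). Without scaling RPS20, TPT1 and EEF1G were called lower, at -1.12, -1.04 and -0.95, and RPS12 was not called. EIF4A3, a helicase of the exon junction complex and in none of the lists, was lower, with a difference of -0.27 ± 0.09 (SE, adjusted p = 0.0406, limma). Its lesions ran from 0.23 through 1.19 to 1.44 against 1.16 through 1.47 to 1.58 in controls, and pig J at 0.23 stood far below the next lesion at 1.064. Without pig J the difference was -0.16 (adjusted p = 0.184), and the call was also lost with the array SD as a covariate (adjusted p = 0.384) and after the running median was subtracted (adjusted p = 0.319).

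Another 3 called genes belonged to none of the lists. QDPR, which recycles the tetrahydrobiopterin cofactor, ran from 0.75 through 1.30 to 1.39 in controls and from 0.55 through 0.91 to 1.23 in lesions. It was lower in 8 of 9 pigs, by -0.34 ± 0.08 (SE, adjusted p = 0.00222, limma), with an adjusted p of 0.055 once the array SD was a covariate and 0.053 after the running median was subtracted. HTT, huntingtin, differed by -0.35 ± 0.11 (SE, adjusted p = 0.0319), and SLC35A4, a member of the nucleotide sugar transporter family, by -0.34 ± 0.11 (SE, adjusted p = 0.0335), both lost with the array SD as a covariate, at adjusted p of 0.73 and 0.75. The remaining lists gave no call: CAPNS1, the small calpain subunit, differed by -0.30, and the lipid genes HADHA and FABP3 by -0.15 and -0.14. The lists of regenerating fibre genes, cell cycle genes and mitochondrially encoded genes had 0 measured members.

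Markers of other cells were too few to describe the cell content of the lesions. None of the markers of neutrophils, lymphocytes, fibroblasts, adipocytes, blood, nerve or satellite cells was measured. CD74, which macrophages and other antigen-presenting cells express, ran from 0.05 through 0.18 to 0.38 in controls and from -0.35 through 0.03 to 1.14 in lesions, a difference of -0.06 (adjusted p = 0.843, limma). PECAM1, a marker of endothelium, differed by -0.07 (adjusted p = 0.711). Of 16 markers of the muscle fibre 11 were measured, of which 1 was higher, 2 were lower and 8 were not called. Among all 121 genes 14.0% were called. The sum of the normalised log values of the 11 ran from 7.35 through 10.4 to 11.3 in controls. In lesions it ran from 7.63 through 9.48 to 10.7, and the ranges overlapped. A sum of log values is not an amount of RNA. The part of the cell content in the changes above was not tested.

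Features without a symbol made up 113 of the 124 rises (91.1%) and 137 of the 157 falls (87.3%), close to their share of all features tested (89.2%). The 6 largest rises seen in at least 8 of 9 pigs were features 5139, 7368, 6682, 7896, 5127 and 4853. Feature 5139 ran from 0.77 through 0.999 to 1.09 in controls and from 3.52 through 3.75 to 3.93 in lesions. Each of its 9 lesions was more than 2 log units above each control, and the difference of 2.77 ± 0.12 (SE) had an adjusted p of 1.92e-21 in limma's test.

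Feature 7368 ran from -0.28 through 0.23 to 0.28 in controls and from 0.17 through 2.79 to 3.07 in lesions. In pig K the lesion, at 0.17, lay within the control range, while the other 8 lesions were at 1.97 or more. The difference was 2.34 ± 0.22 (SE, adjusted p = 1.38e-10, limma).

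Features 6682 and 7896 rose by 2.23 and 2.21, with groups that did not overlap, and were still lower at 7 d. Feature 6682 was 1.61 above control at 7 d, and its 21 d level was 0.63 higher than that at 7 d (adjusted p = 0.0147, limma). Feature 7896 was 1.58 above control at 7 d, and its 21 d level was also 0.63 higher (adjusted p = 0.00215, limma). Pig C had the lowest lesion for both, at 1.28 and 1.44. Features 5127 and 4853 rose by 1.52 and 1.27 in 9 of 9 pigs. Without scaling their differences were 0.79 and 0.45, and feature 4853 was then not called (adjusted p = 0.0670, limma).

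The 6 largest falls were features 6712, 5970, 5039, 6757, 5800 and 6516. They were picked, like the rises, from called features with one sign in at least 8 of 9 pigs. Each was lower in 9 of 9 pigs, and that choice favours such agreement. Their differences were -0.75, -0.67, -0.62, -0.62, -0.61 and -0.60 in that order. Feature 5039 was the one without overlap, with controls from 1.03 through 1.39 to 1.51 and lesions from 0.09 through 0.79 to 1.002. Feature 5800 showed the widest range among lesions, from 0.31 to 1.78, against 1.67 to 2.11 in controls. With the array SD as a covariate 4 of the 6 falls were not called, features 5970, 5039, 6757 and 5800, with adjusted p of 0.120, 0.0515, 0.0952 and 0.191 in limma's test. Without scaling the 6 falls were larger, from -0.93 to -1.41.

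**Figure D5:**
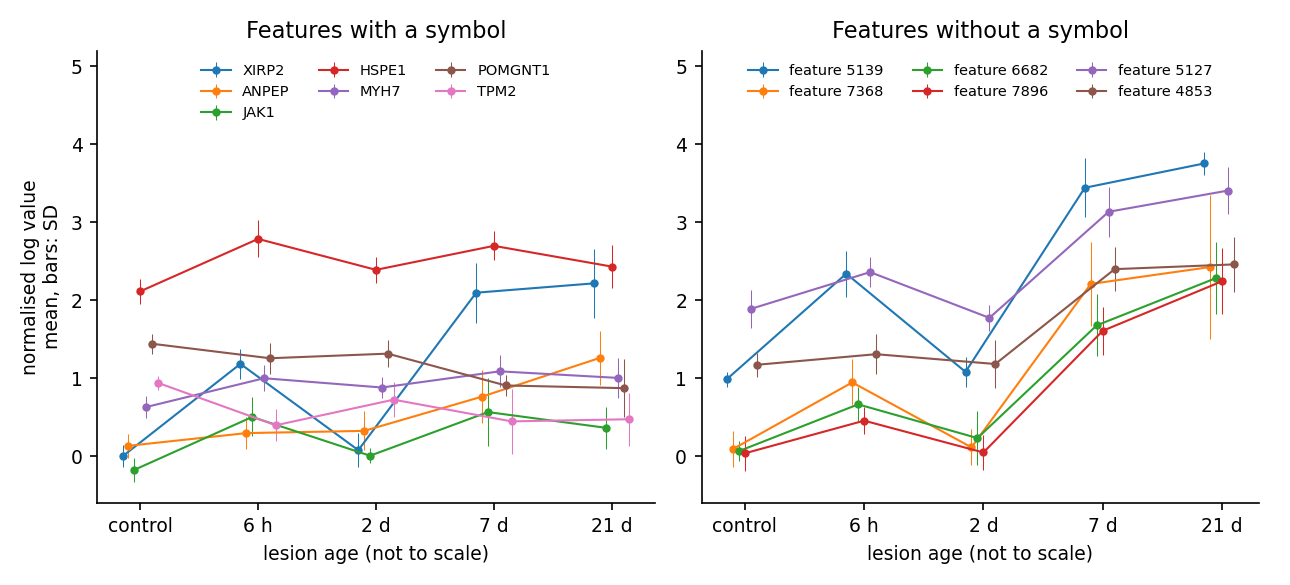
Mean normalised log value with SD bars in control muscle and in lesions of each age, for 7 called genes (left) and the 6 largest rises without a symbol (right); there were 10 samples in control and at 2 d and 9 at each other age, and ages are not drawn to scale. The 6 unnamed features and XIRP2 are high at 7 d and 21 d and near the control at 2 d.

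Lesions of 21 d differed from 2 d lesions at more features than from 6 h or 7 d lesions. In the same fit and against the same controls, 225 features were called at 6 h (11.8%), 14 at 2 d (0.734%) and 484 at 7 d (25.4%). Compared directly, 21 d lesions differed from 2 d lesions at 132 features (6.92%), from 6 h lesions at 31 (1.62%) and from 7 d lesions at 13 (0.681%). Of the 124 features called higher at 21 d, 8 differed from 7 d. Of these, 3 were further above control at 21 d than at 7 d, and the rest were nearer to control. None of the 17 called genes was among those that differed between 21 d and 7 d. With 9 lesions at each of these ages, a p that misses the threshold does not show that the levels were alike.

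The pigs did not contribute alike. The median difference over the 124 higher features was smallest in pig C, at 0.33, and largest in pig D, at 0.95. Over the 157 lower features it was near zero in pig C, at -0.018, and largest in size in pigs I and J, at -0.69 and -0.67. In pig C 83 of the 157 lower features were below its control, against 142 to 154 in the other 8 pigs. Without the 21 d sample of pig C 329 features were called, 128 higher and 201 lower, and 19 genes.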

How the data were processed

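Values of 48 muscle samples in 90 columns were used as the authors deposited them: logarithms of hybridisation signal of unstated base, from -1.33 to 5. Per the labels, each array carries its spots in duplicate, and 41 of 42 samples with 2 columns had identical ones, so columns were averaged into 1 value a sample. A column of the 6 h lesion of pig J that copied a control, and the 6 h array of pig F (correlation with the other arrays 0.240 in place and 0.739 moved by 384 places; at least 0.718 in place for the other 47), were left out. Arrays give no counts, so the number of arrays limits precision.

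Features with a value in every column (1908) were quantile normalised, and limma 3.58.1 in R 4.3.3 was fitted to all 5 groups (47 arrays) with the animal as a fixed block, with Benjamini-Hochberg adjustment. The block rests on the design, since each letter names 1 animal. The median correlation of deviations was -0.0236 within pigs and -0.0249 between pigs, and 4 of 9 control and 21 d pairs exceeded 0.1.

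Genes described are all those called, the 2 members with the smallest p of each list with 3 or more measured genes, and the 6 largest rises and falls without a symbol among features called with one sign in at least 8 of 9 pigs. Other genes are given as members of lists. The lists and the comparison were chosen with earlier results of these data known. Alternatives were other scalings, groups, blocks, covariates, weights, filters and pigs left out. The scripts were tested on simulated data. Symbols come from the platform's annotation, and 204 of 206 identifiers were in the current gene table.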

Additional observations from a re-analysis of the deposited data

Results flagged for a closer look

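Of 84 groups of named genes, named features and array spreads, 15 held a sample that stood far from the others by Dixon's criterion, which chance alone meets in about 1 of 20 groups.

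In control muscle, XIRP2 was high in pig D at 0.361, with the next control at 0.047. Pig E held several distant controls: QDPR was low at 0.750 against 1.173 for the next, HSPE1 was high at 2.53 against 2.174, and features 5139 and 5127 were low at 0.765 and 1.28 against 0.9205 and 1.788. ENO3 was high in the control of pig J at 2.653, with the next at 1.529.

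In 21 d lesions pig J stood apart in 4 genes: MYH7 at 1.555, NPPA at 0.830 and MYH1 at 1.649 were high, and EIF4A3 at 0.230 was low. CFL1 was high in the lesion of pig C at 3.349, with the next at 2.926. In pig I, RPS12 was high at 0.915 and feature 6516 low at 0.298. Feature 7368 was low in the lesion of pig K at 0.17, with the next lesion at 1.971. The array SD of the 21 d sample of pig C, 1.096, stood above the next at 0.736.

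The 21 d level exceeded the 7 d level by limma's test of that difference for features 6682 and 7896, by 0.63 each, with adjusted p of 0.0147 and 0.00215. Neither carried a symbol.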

How the results depend on the processing

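Against 281 called features and 17 called genes, 708 and 58 were called without scaling, 742 and 58 with median-centred arrays, 172 and 9 after quantile normalisation of the 2 groups alone, 177 and 10 with the 6 h array of pig F kept, 178 and 9 in fits on the control and 21 d samples or on the 9 complete pigs, 111 and 6 with the array SD as a covariate, and 175 and 11 after the running median along the list was subtracted. Without the control of pig I and the 6 h sample of pig J 11 genes were called. Pigs left out in turn gave 169 to 325 features and 10 to 19 genes, 11 without pig D, J or K. With no replicate block 269 features and 16 genes were called, and with a random one 257 and 16; among named genes EIF4A3 alone lost its call in these (adjusted p = 0.057 and 0.067, limma). The sign turned for MYH7 (-0.071 without scaling, -0.047 median-centred), HSPE1 (-0.66 and -0.63) and the uncalled CFL1 (0.060 with values divided by the array SD); the cause was not tested. The array spread difference ran from -0.493 to -0.330 with pigs left out, with exact p of 0.0547 or more except without pig C, and was -0.507 by interquartile range (exact p = 0.05078). The title number as a covariate, and leaving out the 21 d sample of pig C, were chosen after seeing the data; they gave 310 and 329 features. In the 3 pigs whose sample numbers lay at most 4 apart, XIRP2 rose by 1.95, 2.33 and 1.83.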

Other observations

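5 features outside the test had values in 2 or 3 columns. Features 8391, 9202, 9209, 9210 and 9211 had a value in the 21 d sample of pig C, at -0.436, 1.154, -0.046, -0.046 and -0.046, and all but feature 9202 also had one in the 6 h sample of pig I. In the other samples these features had no value, and no comparison was made.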
